A study of Homo sapiens with 6 samples.

Results

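The genes examined here encode 7 proteins of the RAS, RAF, MEK and ERK signalling cascade, namely NRAS and HRAS, BRAF and ARAF, MAP2K1 and MAP2K2, and MAPK3. They were taken by symbol from count tables that list 56638 symbols, and all 7 were present and had enough reads to be tested. The libraries came from DLD-1, an established human colorectal cancer cell line, grown in culture and transfected with an siRNA against the long non-coding RNA lncSLCC1 (3 libraries) or with a control siRNA (3 libraries). Each library was made from total RNA, and its reads were counted per gene symbol. What sequences the siRNAs had is not stated in the labels. The comparison addresses which transcripts differ when lncSLCC1 is targeted, here for the core kinases and GTPases of the ERK cascade in 1 cell line. Nothing in the labels tells if replicates were separate cultures, and p-values therefore speak only of the spread among these libraries, possibly a technical one.

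RAS proteins are membrane-bound GTPases that switch on when a growth factor receptor recruits an exchange factor. Active RAS binds the RAF kinases, RAF phosphorylates the MEK kinases, and MEK phosphorylates ERK, which then acts on many cytoplasmic and nuclear substrates. The cascade is among the best known growth pathways of the colonic epithelium and of colorectal cancer. It is controlled mainly by phosphorylation and by GTP loading, neither of which is measured by RNA-seq. NRAS and HRAS are closely related GTPases, BRAF and ARAF are RAF kinases, MAP2K1 and MAP2K2 encode MEK1 and MEK2, and MAPK3 encodes ERK1.

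Gene reads numbered 12572277 to 15262872 in the lncSLCC1 siRNA libraries and 14873343 to 15568075 in the control siRNA libraries. The targeted RNA, listed as RP11-400N13.2, had levels of 1.66, 2.62 and 2.10 CPM (a gene's read count scaled to the size of its library) in lncSLCC1 siRNA replicates 1, 2 and 3, against 5.197, 9.31 and 9.04 CPM in control siRNA replicates 1, 2 and 3. Epithelial markers fitted the labelled cell type, with 6 of 7 at a mean of at least 1 CPM and only CEACAM5 below it. Their summed level was 5711 to 6033 CPM in lncSLCC1 siRNA libraries and 5586 to 6965 CPM in controls. Summed over 4 leukocyte markers the level was 0.830 to 1.64 CPM after lncSLCC1 siRNA and 1.57 to 1.69 CPM after control siRNA, over 3 endothelial markers 1.40 to 1.98 and 1.24 to 2.06 CPM, and over 4 fibroblast markers 3.06 to 3.27 and 2.21 to 2.73 CPM in the same order. PECAM1, an endothelial marker, was at 0 in the 6 libraries. One library stood apart: in control siRNA replicate 1, the deviation of a gene's log2 CPM from its mean over all libraries rose by 0.228 for each 10 percentage points of transcript GC content, against slopes of -0.0933 to -0.018 in the other 5 libraries. Values without that library are therefore given beside the results for the members and for the pathway lists.

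Promoter sequences of 3 members are shown, from RefSeq on GRCh38.p14, because HRAS was lower after lncSLCC1 siRNA while of the paralogs MAP2K1 and MAP2K2 the groups did not overlap for MAP2K1 and overlapped for MAP2K2. Each runs 5′ to 3′ on the strand of the gene, from 250 bases before the annotated start to 50 after it. The windows are chr11:535527-535826 on the minus strand for HRAS, chr15:66386662-66386961 on the plus strand for MAP2K1 and chr19:4124073-4124372 on the minus strand for MAP2K2. Capitals mark the GC box, GGGCGG on either strand, and matches may overlap.
HRAS: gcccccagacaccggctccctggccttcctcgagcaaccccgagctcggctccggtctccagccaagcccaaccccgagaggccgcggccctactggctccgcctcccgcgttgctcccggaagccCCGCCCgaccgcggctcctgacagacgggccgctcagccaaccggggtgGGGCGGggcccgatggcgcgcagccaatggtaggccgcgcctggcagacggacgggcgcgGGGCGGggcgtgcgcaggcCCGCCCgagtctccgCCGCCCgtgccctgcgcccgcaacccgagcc
MAP2K1: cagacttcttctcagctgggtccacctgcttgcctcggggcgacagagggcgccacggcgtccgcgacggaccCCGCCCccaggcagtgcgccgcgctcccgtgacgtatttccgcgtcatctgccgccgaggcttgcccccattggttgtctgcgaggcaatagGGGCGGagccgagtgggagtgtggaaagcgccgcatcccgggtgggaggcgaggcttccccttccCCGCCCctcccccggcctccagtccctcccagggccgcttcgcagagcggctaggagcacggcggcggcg
MAP2K2: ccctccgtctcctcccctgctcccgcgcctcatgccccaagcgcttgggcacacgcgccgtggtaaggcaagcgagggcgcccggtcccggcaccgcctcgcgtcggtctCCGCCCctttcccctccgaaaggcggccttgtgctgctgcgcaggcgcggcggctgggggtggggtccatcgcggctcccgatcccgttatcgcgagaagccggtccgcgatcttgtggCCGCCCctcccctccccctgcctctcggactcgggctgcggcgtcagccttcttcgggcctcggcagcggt
The HRAS window held 5 GC boxes and had 78.0% GC, the MAP2K1 window held 3 and had 72.0%, and the MAP2K2 window held 2 and had 73.7%. MAP2K1 and MAP2K2 each have another annotated window, not shown, with 0 GC boxes and 53.7% and 61.7% GC. At least 1 GC box was found in 44.6% of 27305 promoter windows of the same length, whose median GC content was 58.3%. The TATA box TATAAA, found on either strand in 12.0% of windows, was in none of the 3. CCAAT on either strand was in the windows shown for HRAS and MAP2K1 and in 35.7% of all windows. All 7 members matched the table, and the main windows of NRAS and MAPK3 held 3 and 8 GC boxes, whereas those of BRAF and ARAF held 0. These matches describe the letters only.

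Of the 7 genes, 1 was lower after lncSLCC1 siRNA and 0 were higher in edgeR's quasi-likelihood test at an adjusted p under 0.05. Over all 15242 tested genes 7.39% were lower and 6.46% higher (13.8% in all), so 1 of 7 is near the background. At an unadjusted p under 0.05, 3 of the 7 were lower and 0 higher, against 16.3% and 15.3% of all genes. DESeq2 and limma-voom each called HRAS lower and no other member (8.58% and 6.87% of all genes were lower by these tools). The groups did not overlap, with lncSLCC1 siRNA lower, for 3 members, HRAS, ARAF and MAP2K1, against 19.6% of tested genes. The median log2 fold change of the 7 was -0.10, against 0.0072 over all tested genes. It was -0.17 without control siRNA replicate 1 and -0.18 with offsets for GC content and transcript length, and between -0.17 and -0.064 over the fits that leave out a library. Reads per gene and library ran from 527 for BRAF to 2319 for HRAS, so each value rests on at least 527 reads. In these bulk samples fewer cells with a transcript and less of it per cell cannot be told apart.

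HRAS had 104.9, 95.2 and 97.2 CPM in lncSLCC1 siRNA replicates 1, 2 and 3, against 165, 133 and 117 CPM in control siRNA replicates 1, 2 and 3. Every lncSLCC1 siRNA library lay below every control, and the controls were the more scattered group. The mean was 99.1 ± 5.10 CPM after lncSLCC1 siRNA and 138 ± 24.4 CPM after control siRNA (SD, n = 3 each), or 71.7% of control siRNA. This is a log2 fold change of -0.48 (SE 0.120, 95% interval -0.75 to -0.21, edgeR quasi-likelihood adjusted p = 0.0294). It was smaller without control siRNA replicate 1, but with a smaller error, at -0.34 (SE 0.0653, edgeR adjusted p = 0.000448). With offsets that remove each library's trend with GC content and transcript length it was -0.29 (SE 0.0482, edgeR adjusted p = 0.00159). The call was lost without control siRNA replicate 2 (adjusted p = 0.0887, log2 fold change -0.51) and without lncSLCC1 siRNA replicate 1 (0.083, -0.525), 2 (0.135, -0.45) or 3 (0.122, -0.47), all by edgeR. In each of those 4 fits 0 members were called, against 3.95%, 3.79%, 3.03% and 2.93% of all genes in that order. Without control siRNA replicate 3, HRAS and ARAF were lower, against 13.4% of all genes.

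NRAS had 102.7, 105 and 107 CPM in lncSLCC1 siRNA replicates 1, 2 and 3, against 65.5, 99.1 and 109 CPM in control siRNA replicates 1, 2 and 3. The groups overlapped, and control siRNA replicate 1 was the only library below 99 CPM. The mean was 105 ± 2.17 CPM after lncSLCC1 siRNA and 91.1 ± 22.7 CPM after control siRNA (SD, n = 3 each). NRAS was not called (log2 fold change 0.20, SE 0.157, 95% interval -0.15 to 0.55, edgeR adjusted p = 0.401). It was 0.014 without control siRNA replicate 1 (SE 0.0621, edgeR adjusted p = 0.891).

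**Figure D1:**
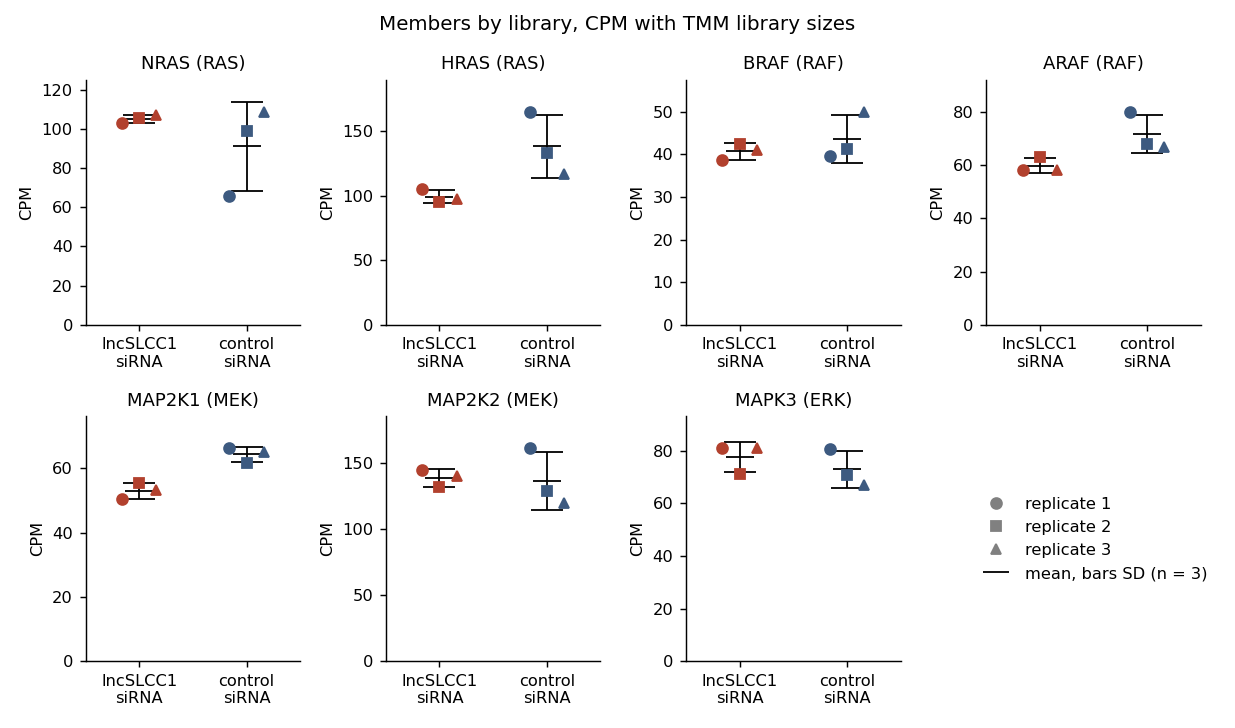
CPM (y axes, each from 0) of the 7 members in lncSLCC1 siRNA libraries, left, and control siRNA libraries, right; symbols are the replicates, and bars are the mean and SD of 3 libraries. HRAS, ARAF and MAP2K1 do not overlap between groups, and control siRNA replicate 1 (circle) is the lowest control for NRAS at 65.5 CPM and the highest for HRAS at 165 CPM.

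The RAF genes were lower in mean after lncSLCC1 siRNA, and neither passed the test. ARAF had 57.99, 63.2 and 58.3 CPM in lncSLCC1 siRNA replicates 1, 2 and 3, against 80.1, 68.0 and 67.0 CPM in control siRNA replicates 1, 2 and 3. The groups did not overlap, and the highest lncSLCC1 siRNA library was close to the lowest control. Means were 59.8 ± 2.90 CPM after lncSLCC1 siRNA and 71.7 ± 7.30 CPM after control siRNA (SD, n = 3 each), with a log2 fold change of -0.26 (SE 0.0975, 95% interval -0.48 to -0.043, edgeR adjusted p = 0.101). ARAF passed with the GC content and length offsets (log2 fold change -0.18, edgeR adjusted p = 0.0407) and without control siRNA replicate 3 (-0.31, 0.0477), and missed the threshold without control siRNA replicate 1 (-0.17, 0.0556).

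BRAF had 38.6, 42.5 and 41.1 CPM in lncSLCC1 siRNA replicates 1, 2 and 3, against 39.6, 41.3 and 50.03 CPM in control siRNA replicates 1, 2 and 3. The groups overlapped, and control siRNA replicate 3 was the highest library. Means were 40.7 ± 1.99 CPM after lncSLCC1 siRNA and 43.6 ± 5.61 CPM after control siRNA (SD, n = 3 each), and the log2 fold change was -0.0995 (SE 0.111, 95% interval -0.35 to 0.15, edgeR adjusted p = 0.573). With the GC content and length offsets it was -0.30 (SE 0.104, edgeR adjusted p = 0.0517). These offsets took the longest annotated transcript, 9.578 kb for BRAF against a median length of 2.561 kb. Leaving out control siRNA replicate 1 gave a log2 fold change of -0.17 (SE 0.0846, edgeR adjusted p = 0.147). Its sign turned without control siRNA replicate 3, at 0.0071.

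Of the MEK genes, MAP2K1 had all its lncSLCC1 siRNA values below its controls, while the groups overlapped for MAP2K2. MAP2K1, which encodes MEK1, had 50.5, 55.2 and 53.1 CPM in lncSLCC1 siRNA replicates 1, 2 and 3, against 66.1, 61.7 and 65.1 CPM in control siRNA replicates 1, 2 and 3. Control siRNA replicate 1, at 66.1 CPM, was close to control siRNA replicate 3. Means were 52.95 ± 2.38 CPM after lncSLCC1 siRNA and 64.3 ± 2.32 CPM after control siRNA (SD, n = 3 each), or 82.4% of control siRNA. At -0.28 on the log2 scale (SE 0.0848, 95% interval -0.47 to -0.091) MAP2K1 narrowly missed the threshold over all genes (edgeR adjusted p = 0.0543). It passed without control siRNA replicate 1 (-0.26, SE 0.0698, edgeR adjusted p = 0.00685) and with the offsets (-0.26, SE 0.0575, adjusted p = 0.00825).

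MAP2K2, which encodes MEK2, had 144, 131 and 140.02 CPM in lncSLCC1 siRNA replicates 1, 2 and 3, against 161, 129 and 119.5 CPM in control siRNA replicates 1, 2 and 3. The groups overlapped through control siRNA replicate 1, the highest of the 6 libraries. Means were 139 ± 6.52 CPM after lncSLCC1 siRNA and 136 ± 21.7 CPM after control siRNA (SD, n = 3 each), with a log2 fold change of 0.024 (SE 0.111, 95% interval -0.22 to 0.27, edgeR adjusted p = 0.908). Without control siRNA replicate 1 it was 0.16 (SE 0.0612, edgeR adjusted p = 0.0566), and with the offsets MAP2K2 was called higher, at 0.17 (SE 0.0507, adjusted p = 0.0306).

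MAPK3, which encodes ERK1, had 80.8, 71.1 and 80.8 CPM in lncSLCC1 siRNA replicates 1, 2 and 3, against 80.4, 70.9 and 67.1 CPM in control siRNA replicates 1, 2 and 3. Apart from control siRNA replicate 1, the controls lay just below the lowest lncSLCC1 siRNA library. Means were 77.6 ± 5.57 CPM after lncSLCC1 siRNA and 72.8 ± 6.89 CPM after control siRNA (SD, n = 3 each), and the log2 fold change was 0.092 (SE 0.0985, 95% interval -0.13 to 0.31, edgeR adjusted p = 0.56). It was 0.17 when control siRNA replicate 1 was left out (SE 0.0698, edgeR adjusted p = 0.0765).

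**Figure D2:**
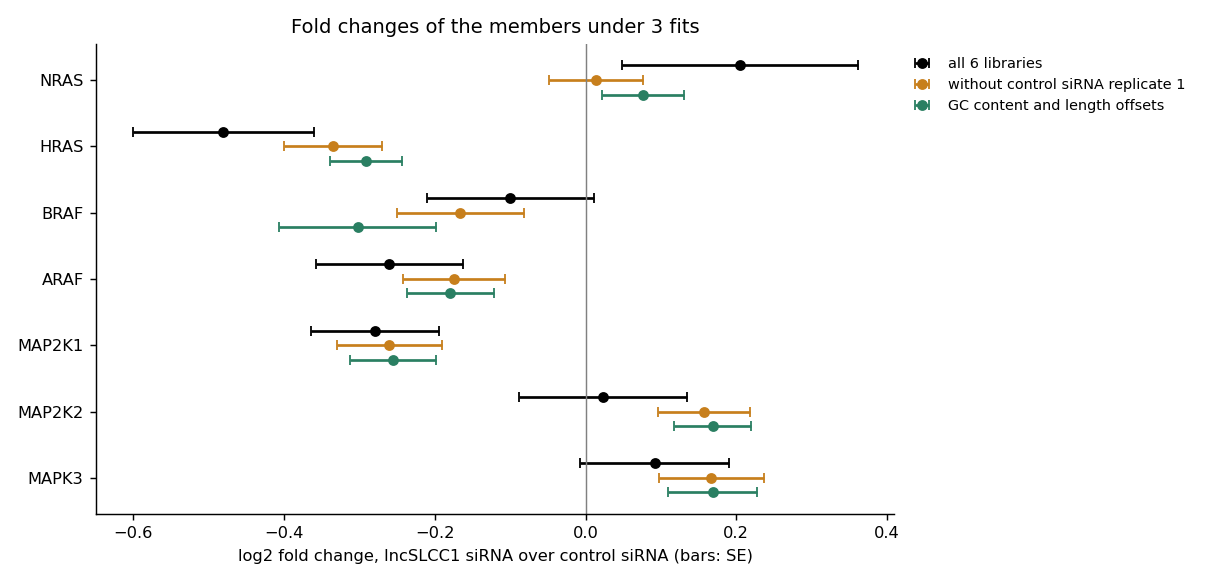
Log2 fold change (x axis) of lncSLCC1 siRNA over control siRNA for each member (y axis) with all 6 libraries, without control siRNA replicate 1, and with GC content and length offsets; points are the edgeR estimates and bars their SE. HRAS, ARAF, MAP2K1 and BRAF lie below 0 in the 3 fits and NRAS, MAP2K2 and MAPK3 above it, with HRAS at -0.48, -0.34 and -0.29.

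Without control siRNA replicate 1, HRAS and MAP2K1 were lower by edgeR and 0 members were higher, against 15.5% lower and 13.5% higher over all tested genes. At an unadjusted p under 0.05, 3 members were lower and 2 higher, against 20.5% and 19.4% of all genes. The groups then did not overlap for 5 members, with 3 lower and 2 higher, against 26.7% lower and 26.4% higher over all genes. With the offsets 3 members, HRAS, ARAF and MAP2K1, were lower and 1, MAP2K2, was higher, against 15.6% and 12.9% over all genes.

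The levels of control siRNA replicate 1 broadly followed the GC content of the members. Relative to the mean of control siRNA replicates 2 and 3, it stood at 132% for HRAS, whose longest transcript has 65.8% GC, and at 129.6% for MAP2K2 (65.5% GC). MAPK3 (61.4% GC) and ARAF (58.9% GC) stood at 117% and 119%, and MAP2K1 (50.4% GC) at 104%. The AT-rich members were below the other controls, BRAF (40.03% GC) at 86.7% and NRAS (38.4% GC) at 63.0%. Without control siRNA replicate 1, the log2 fold changes of lncSLCC1 siRNA over control siRNA in the same order were -0.34 for HRAS, 0.16 for MAP2K2, 0.17 for MAPK3, -0.17 for ARAF, -0.26 for MAP2K1, -0.17 for BRAF and 0.014 for NRAS. These are 7 genes of the same libraries, and beyond the fits with offsets the part of GC content in these fold changes was not tested.

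**Figure D3:**
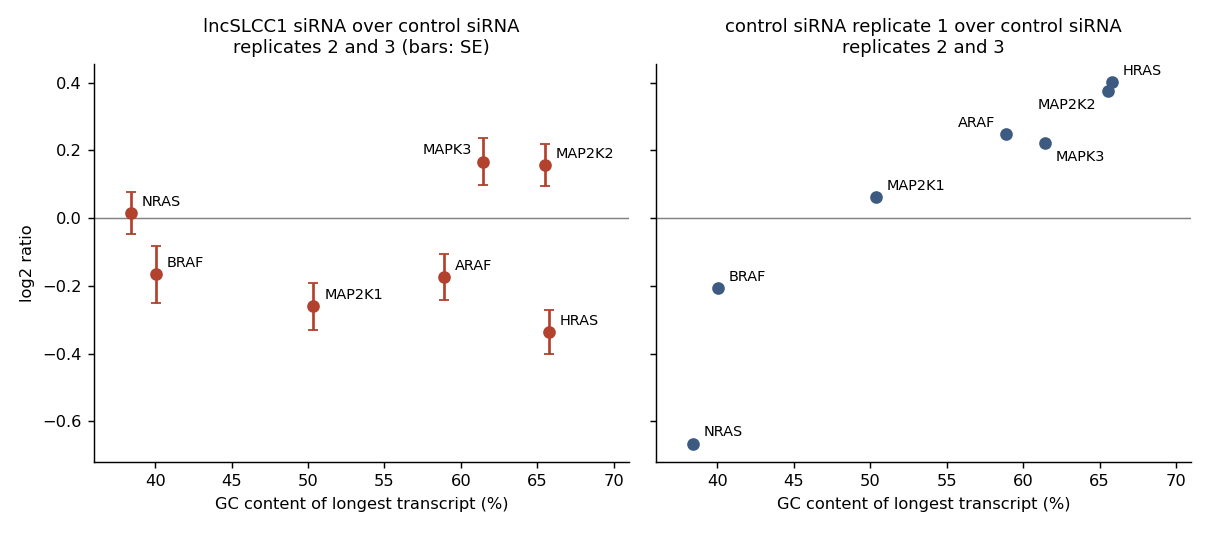
Log2 ratio (y axes, shared) against the GC content of each member's longest transcript in percent (x axes). Left, lncSLCC1 siRNA over control siRNA replicates 2 and 3 with SE bars, where HRAS and MAP2K2 part at -0.34 and 0.16; right, control siRNA replicate 1 over control siRNA replicates 2 and 3, which runs from -0.67 for NRAS to 0.40 for HRAS.

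Ratios of 2 members within a library do not depend on how libraries are scaled, but they are not free of a trend with GC content. NRAS and HRAS have the lowest and the highest GC content among the members (38.4% and 65.8%). The part of GC content in their ratio was not tested. For every 100 HRAS reads there were 97.9, 111 and 110.02 NRAS reads in lncSLCC1 siRNA replicates 1, 2 and 3, against 39.7, 74.6 and 92.8 in control siRNA replicates 1, 2 and 3. The NRAS to HRAS ratio was thus higher in every lncSLCC1 siRNA library, with log2 means of 0.085 ± 0.0999 after lncSLCC1 siRNA and -0.62 ± 0.637 after control siRNA (SD, n = 3 each). The difference of 0.71 gave p = 0.1 in an exact two-sided permutation test, the smallest that 3 against 3 libraries allow (0.3 adjusted over the 3 ratios tested), and it was 0.35 without control siRNA replicate 1. For every 100 MAP2K2 reads there were 35.0, 42.03 and 37.95 MAP2K1 reads in lncSLCC1 siRNA libraries, against 41.1, 47.95 and 54.4 in control siRNA libraries. These overlapped (log2 difference -0.31, exact permutation p = 0.2, adjusted 0.3) and did not overlap without control siRNA replicate 1 (-0.42). The BRAF to ARAF ratio overlapped widely, at 66.6, 67.3 and 70.5 BRAF reads for every 100 ARAF reads after lncSLCC1 siRNA and 49.4, 60.7 and 74.7 after control siRNA (log2 difference 0.16, exact permutation p = 0.5, also 0.5 adjusted). The difference was 0.016 without control siRNA replicate 1 and 0.31 without control siRNA replicate 3.

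The ratio of HRAS to MAP2K2, chosen after its values were seen because the 2 transcripts are alike in GC content, is given as a description with no test. It was 72.7, 72.4 and 69.4 HRAS reads for every 100 MAP2K2 reads in lncSLCC1 siRNA replicates 1, 2 and 3, against 103, 103 and 98.04 in control siRNA replicates 1, 2 and 3. All 3 controls, replicate 1 included, lay close together on this ratio, with an SD of 0.0404 in log2 units, and the log2 difference was -0.50 with all controls and -0.49 without control siRNA replicate 1. HRAS to MAPK3 gave -0.56 and -0.50 in the same way.

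**Figure D4:**
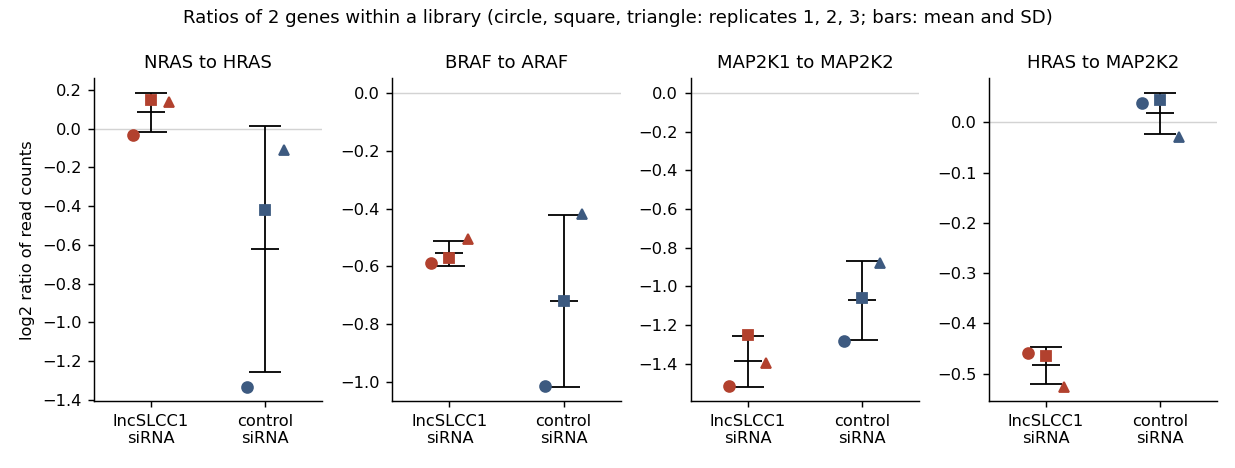
Log2 ratio of read counts (y axes, separate ranges) of 4 pairs of members in lncSLCC1 siRNA libraries, left, and control siRNA libraries, right; symbols are replicates, bars the mean and SD of 3 libraries. The HRAS to MAP2K2 ratio lies at -0.53 to -0.46 after lncSLCC1 siRNA and at -0.029 to 0.045 after control siRNA, while the NRAS to HRAS ratio of the controls spreads from -1.33 to -0.11.

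Per kilobase of the longest annotated transcript, HRAS and MAP2K2 were the most abundant members and BRAF the least. HRAS stood at 80.4 ± 4.14 CPM per kb after lncSLCC1 siRNA and 112 ± 19.8 after control siRNA, and MAP2K2 at 79.9 ± 3.76 and 78.6 ± 12.5 CPM per kb in the same order (SD, n = 3 each). HRAS and MAP2K2 overlapped over the 6 libraries. MAPK3, ARAF and NRAS followed at means over the 6 libraries of 29.3, 26.3 and 22.04 CPM per kb, with overlapping ranges between neighbours, then MAP2K1 at 17.2, which overlapped NRAS, and BRAF at 4.404, below every other member in every library. With the median length of the annotated transcripts in place of the longest, BRAF stood at 16.5, MAPK3 at 53.4 and MAP2K1 at 24.2 CPM per kb, and NRAS and MAP2K1 changed places. BRAF has a longest transcript of 9.578 kb and a median of 2.561 kb, and with the median length it stayed last by its mean but its range, 15.1 to 19.5 CPM per kb, overlapped that of NRAS, 14.7 to 24.4.

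Sequence shared with other genes was found for 3 of the 7 members. In GENCODE release 29 none of the 50-base words in the longest transcripts of NRAS, HRAS, ARAF and MAPK3 occurs in a transcript of another gene. For BRAF, MAP2K1 and MAP2K2 14.4%, 9.97% and 15.7% of words do, including words of the pseudogenes BRAFP1 and MAP2K1P1, at means of 0.0907 and 0.0732 CPM after lncSLCC1 siRNA and 0.113 and 0.0651 CPM after control siRNA. Exons of NDUFB2 on the opposite strand cover 5.29% of the exon bases of BRAF, and opposite-strand exons, among them those of SNAPC5, cover 11.5% of those of MAP2K1. Whether counting used the strand is not stated in the labels, so reads in these stretches cannot be told apart. NDUFB2 stood at 24.4 CPM after lncSLCC1 siRNA and 32.9 CPM after control siRNA (log2 fold change -0.43, edgeR adjusted p = 0.0599), and SNAPC5 at 11.8 and 13.4 CPM (-0.18, 0.371). LRRC56, next to HRAS in the order of RefSeq genes, rose while HRAS fell, with 7.24, 6.39 and 5.61 CPM in lncSLCC1 siRNA replicates 1, 2 and 3 against 4.70, 3.06 and 3.64 CPM in control siRNA replicates 1, 2 and 3 (log2 fold change 0.76, SE 0.188, edgeR adjusted p = 0.0278).

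Over the 6 libraries, the centred log2 CPM profiles of MAP2K2 and MAPK3 were the most alike among the members, with a root mean square distance of 0.0651, followed by ARAF and MAP2K1 at 0.0721. NRAS and HRAS were the farthest apart, at 0.512. Among 9491 other tested genes with a mean of at least 5 CPM, the profiles nearest to HRAS were those of RBM38, which encodes an RNA-binding protein, and UBE2C, a mitotic ubiquitin-conjugating enzyme gene (distances 0.0224 and 0.0245). Nearest to NRAS were PAPOLA, a poly(A) polymerase gene, and YES1, a SRC family kinase gene (0.0169 and 0.0244), and GPR125 was among the nearest to MAP2K1 (0.0216). For BRAF they were STARD9 and MID1 (0.029 and 0.0364), for ARAF PVRL1 and CHPF2 (0.0192 and 0.0217), for MAP2K2 PSMC3 and TUBA1C (0.0176 and 0.018) and for MAPK3 ANKZF1 and PSPH (0.0273 and 0.0306). Each distance rests on 6 libraries and includes the spread of control siRNA replicate 1.

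The surrounding pathway was described by 8 lists of 109 genes, of which 103 were tested, 5 rose and 19 fell, with 8 of the 19 on the list of ERK output genes. The lists were drawn up with earlier results of these libraries known, and each count below stands against 6.46% higher and 7.39% lower over all tested genes, or 13.5% and 15.5% without control siRNA replicate 1. Above the cascade, 2 of 13 RAS adaptor and exchange factor genes fell and 0 rose (median log2 fold change -0.018), and 5 fell and 1 rose without control siRNA replicate 1 (median -0.19). SHC1, an adaptor that links receptors to exchange factors, fell to 60.2 ± 0.616 CPM after lncSLCC1 siRNA, against 74.03 ± 2.64 CPM after control siRNA (SD, n = 3 each; log2 fold change -0.30, SE 0.0799, edgeR adjusted p = 0.0369). RASGRF1, an exchange factor gene, fell to 3.24 ± 0.695 CPM, against 5.58 ± 0.594 CPM after control siRNA (SD, n = 3 each; log2 fold change -0.77, SE 0.188, edgeR adjusted p = 0.0267). The most abundant genes that did not pass were PTPN11, a phosphatase gene that promotes RAS signalling, at a log2 fold change of 0.13, and the adaptor gene CRKL at -0.22.

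Of the 10 genes for RAS GTPase-activating proteins and inhibitors 7 were tested, 1 rose and 0 fell (median log2 fold change 0.25), and 2 rose and 0 fell without control siRNA replicate 1 (median 0.078). NF1, the neurofibromin gene, was at a log2 fold change of 0.12 and LZTR1 at -0.15, and neither passed. Among 12 genes of RAS lipid processing and trafficking 2 fell and 0 rose (median log2 fold change -0.11), and 4 fell and 1 rose without control siRNA replicate 1 (median -0.081). Both act on the C-terminal tail by which RAS reaches the membrane: FNTB encodes the beta subunit of farnesyltransferase and RCE1 the protease of the next step. FNTB fell to 8.31 ± 0.391 CPM after lncSLCC1 siRNA, against 12.4 ± 1.83 CPM after control siRNA, and RCE1 to 24.4 ± 2.56 CPM, against 36.3 ± 4.23 CPM after control siRNA (SD, n = 3 each; log2 fold changes -0.57 each, adjusted p = 0.0265 and 0.0162 by edgeR). ICMT, the methyltransferase gene of the step after RCE1, did not pass, at 144 ± 1.92 CPM after lncSLCC1 siRNA and 143 ± 5.49 CPM after control siRNA (SD, n = 3 each; log2 fold change 0.0079).

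Among 20 tested scaffold and regulator genes of RAF, MEK and ERK, 4 fell and 1 rose (median log2 fold change -0.036), and 8 fell and 3 rose without control siRNA replicate 1 (median -0.11). LAMTOR2, part of a complex on late endosomes and lysosomes to which MEK1 can be anchored, fell to 23.3 ± 0.883 CPM after lncSLCC1 siRNA, against 41.4 ± 6.10 CPM after control siRNA (SD, n = 3 each; log2 fold change -0.83, SE 0.121, edgeR adjusted p = 0.00319). PEA15, whose product holds ERK in the cytoplasm, fell by 0.64 (SE 0.0958), RASSF1, a RAS association domain gene, by 0.49 (SE 0.112) and PAK1, a kinase gene whose product phosphorylates RAF and MEK1, by 0.34 (SE 0.0893) on the log2 scale. KSR2, a RAF-like scaffold gene, rose to 14.3 ± 1.52 CPM, against 9.56 ± 0.403 CPM after control siRNA (SD, n = 3 each; log2 fold change 0.59, SE 0.125, edgeR adjusted p = 0.0159). LAMTOR1 and LAMTOR3, of the same complex as LAMTOR2, were at log2 fold changes of 0.11 and 0.22 and did not pass. The most abundant of the list, CDC37 and IQGAP1, were at -0.06 and 0.25 and did not pass.

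Of 11 other RAS family GTPase genes, 0 passed by edgeR or limma-voom and 1 was lower by DESeq2, and at an unadjusted p under 0.05 by edgeR 1 was lower (median log2 fold change -0.11). With control siRNA replicate 1 left out, 3 fell and 0 rose (median -0.12). RALA and RALB, RAS-like GTPases activated downstream of RAS, were at log2 fold changes of -0.18 and 0.049. Among 13 tested genes of other MAP2K and MAPK kinases 2 fell and 0 rose (median log2 fold change -0.024), and 2 fell and 4 rose without control siRNA replicate 1 (median -0.12). MAPK13, a p38 kinase gene, fell to 60.9 ± 1.60 CPM after lncSLCC1 siRNA, against 97.1 ± 9.73 CPM after control siRNA (SD, n = 3 each; log2 fold change -0.67, SE 0.0934, edgeR adjusted p = 0.00261). MAP2K3, which encodes an activator of p38, fell by 0.37 (SE 0.101, adjusted p = 0.0393), while MAPK9 and MAP2K4, of the JNK branch, were at -0.14 and -0.021 and did not pass.

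Below the cascade, 3 of 14 genes for ERK substrates rose and 1 fell (median log2 fold change 0.078), and 5 rose and 2 fell without control siRNA replicate 1 (median 0.022). ELK1, the ternary complex factor that ERK phosphorylates, fell to 28.5 ± 1.68 CPM after lncSLCC1 siRNA, against 53.8 ± 4.28 CPM after control siRNA (SD, n = 3 each; log2 fold change -0.92, SE 0.1004, edgeR adjusted p = 0.000645). Both genes for the MNK kinases, which phosphorylate the cap-binding factor eIF4E, rose. MKNK2 stood at 191 ± 5.47 CPM after lncSLCC1 siRNA and 125 ± 3.59 CPM after control siRNA (SD, n = 3 each; log2 fold change 0.61, SE 0.0727, edgeR adjusted p = 0.00104), and MKNK1 at 63.97 ± 1.46 and 51.3 ± 3.58 CPM in the same order (log2 fold change 0.32, SE 0.0886, adjusted p = 0.0414). RPS6KA2, which encodes an RSK kinase, rose by 0.64 (SE 0.161, edgeR adjusted p = 0.0298). ETS2 and STMN1, at 0.16 and -0.095, did not pass.

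Among 13 genes whose transcription is known to follow ERK activity, 8 fell and 0 rose, or 61.5% against 7.39% of all tested genes, with a median log2 fold change of -0.47. With control siRNA replicate 1 left out 12 fell and 0 rose (median -0.40), against 15.5% lower over all tested genes. Over the fits that leave out a library 3 to 12 were called, all lower, against 1.56% to 15.5% of all genes lower. The count is a description, since these genes were listed with earlier results in view. EGR1, an immediate early transcription factor gene, stood at 63.05 ± 5.37 CPM after lncSLCC1 siRNA and 153 ± 15.0 CPM after control siRNA (SD, n = 3 each; log2 fold change -1.28). EPHA2, a receptor tyrosine kinase gene, fell to 148 ± 5.77 CPM, against 209 ± 4.82 CPM after control siRNA (SD, n = 3 each; log2 fold change -0.50, SE 0.0726, edgeR adjusted p = 0.00304), and ETV4, an ETS factor gene, fell by 0.55 (SE 0.105). CCND1 and DUSP6 were also among the fallers, at -0.74 and -0.47, while PHLDA1 and FOSL1, at -0.15 and -0.45, did not pass. The members of the cascade itself, with 1 of 7 called, had a median of -0.10, and no test compared the 2 groups of genes.

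**Figure D5:**
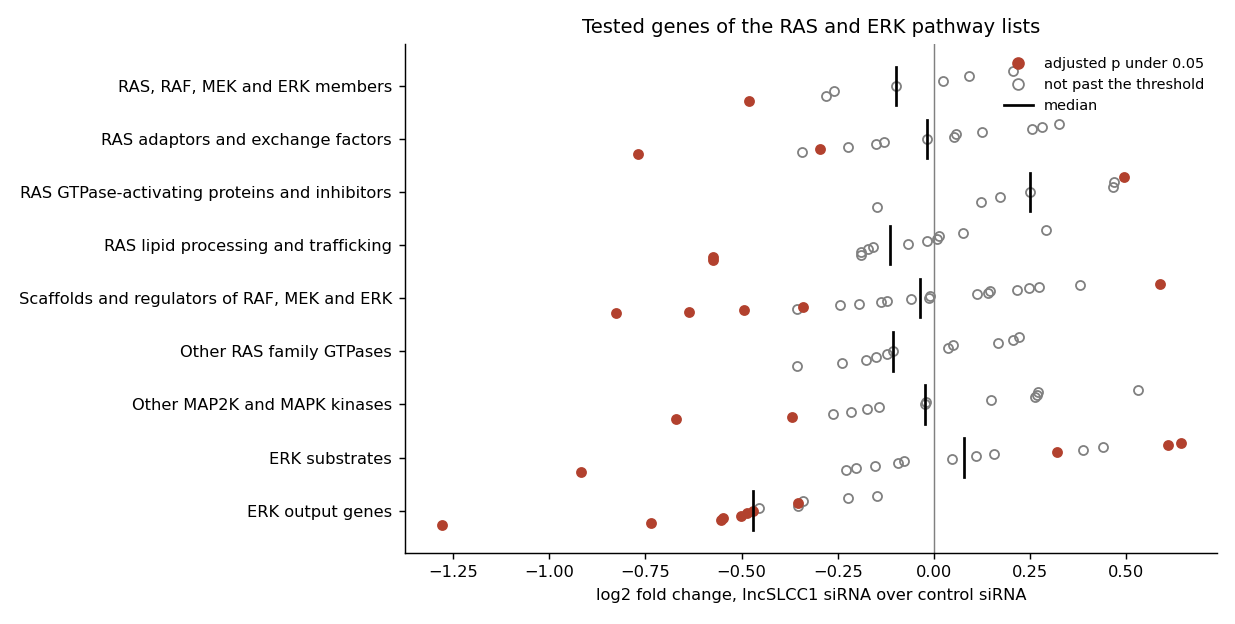
Log2 fold change (x axis) of lncSLCC1 siRNA over control siRNA for each tested gene of the 7 members and the 8 pathway lists (y axis, 1 row a list); filled points have an adjusted p under 0.05 by edgeR, open points do not, and vertical bars are medians. ERK output genes lie furthest to the left with a median of -0.47 and no point above 0, whereas ERK substrates spread from -0.92 to 0.64.

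Of the 24 called pathway genes, 24 were also called without control siRNA replicate 1 and 24 with the offsets. Of all genes these fits called 15.5% and 15.6% lower, and 13.5% and 12.9% higher, in that order. Without control siRNA replicate 2, 9 of the 24 were called, against 3.95% of all genes. Without lncSLCC1 siRNA replicates 1, 2 and 3 the counts were 12, 9 and 9, against 3.79%, 3.03% and 2.93% of all genes. With all libraries 13.8% of all genes were called, so the calls kept also reflect how many genes each fit called. The 8 genes called in each of the 6 fits that leave out 1 library were LAMTOR2, PEA15, MAPK13, MKNK2, ELK1, EGR1, CCND1 and EPHA2, and no sign changed among the 24 in these fits. Scaled to library totals, which moved the median of all genes to 0.0765, the medians of the adaptor, scaffold and other kinase lists were above 0, at 0.045, 0.032 and 0.041. The adaptor median was also above 0 by limma-voom (0.032), with the replicate block (0.027) and without control siRNA replicate 2 (0.002), control siRNA replicate 3 (0.041) or lncSLCC1 siRNA replicate 3 (0.012), and the scaffold median without control siRNA replicate 2 (0.0045). The sign of these 3 list medians is thus not settled. Beside the median of all genes in the same fit, the scaffold and other kinase medians were lower in each fit. The adaptor median was lower in some fits, such as library totals, and higher in others, such as limma-voom (0.032 against 0.017).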

How the data were processed

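Total RNA of DLD-1 cells was sequenced in 6 libraries, and the authors deposited raw read counts per gene symbol. TopHat2 2.0.11 and HTSeq, with hg19 and GRCh37, are named in the submitters' processing notes; no annotation release or strand setting is stated there. Summary lines of HTSeq entered neither library sizes nor tests; 5.42% to 7.58% of reads and alignments per library matched no feature and 8.83% to 10.1% were ambiguous.

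Groups came from the titles. The main test was edgeR 4.0.16 quasi-likelihood (R 4.3.3) with TMM library sizes, the default filter and no covariate, with Benjamini-Hochberg adjustment over 15242 genes. CPM used TMM library sizes. A standard error is the fold change over the root of its F value. The biological coefficient of variation was 10.9%. The procedure was first tested on simulated data, which held no trend with GC content and gave each gene the same spread in both groups. It called 53 of 100 genes with a 1.5-fold change and 100 of 100 with a 2-fold change, with 12 false calls. In the real libraries the controls were the more scattered group, so these rates need not hold for them.

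Lengths, GC content, exons and transcript words came from GENCODE release 29, matched by symbol (63.1% of symbols, 89.4% of tested genes), and promoters from RefSeq. Because the builds differ, only promoter windows carry coordinates. Members, lists and tests were chosen with earlier results of these data known. Named genes were the members, the targeted RNA, called list genes (at most the 5 of smallest adjusted p a list), the 2 most abundant uncalled genes of a list, pseudogenes and neighbours of members, and the 2 nearest profiles of each member. LAMTOR1 and LAMTOR3 were named after their values were seen, and some genes that the rule names are not reported here. Alternatives were DESeq2 1.42.0, limma-voom (limma 3.58.1), DESeq2 size factors, library totals, other filters, the replicate block, GC content and length offsets (loess, span 0.3), and each library left out. No libraries of 1 group agreed within sampling noise: the chi-square per gene was 1.79 to 1.90 between lncSLCC1 siRNA libraries and 5.46 to 27.98 between controls.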

Additional observations from a re-analysis of the deposited data

How the results depend on the processing

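DESeq2 size factors, library totals, either other filter, DESeq2, limma-voom and the replicate block left the sign and the call of each of the 7 members and the targeted RNA as given. With the GC content and length offsets, 4 members were called in place of 1, with ARAF at -0.18, MAP2K1 at -0.26 and MAP2K2 at 0.17 now past the threshold. The genes called over the whole table numbered 2110, 3272 with no low-count filter, 4339 with the offsets and 457 to 4543 when a library was left out. The members called were then 0 to 2, with log2 fold changes of 0.014 to 0.35 for NRAS, -0.59 to -0.34 for HRAS, -0.17 to 0.0071 for BRAF, -0.31 to -0.17 for ARAF, -0.31 to -0.25 for MAP2K1, -0.067 to 0.16 for MAP2K2 and 0.032 to 0.17 for MAPK3. BRAF turned sign without control siRNA replicate 3 (0.0071), and MAP2K2 without control siRNA replicates 2 (-0.02) and 3 (-0.067) and lncSLCC1 siRNA replicate 1 (-0.0081), with the cause not tested.

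With the offsets 28.5% of all tested genes were called in either direction. List calls were then 4 of 13 for adaptors and exchange factors, 3 of 7 for GTPase-activating proteins and 4 of 12 for lipid processing. They were 11 of 20 for scaffolds (7 lower and 4 higher), 3 of 11 for other RAS GTPases and 6 of 13 for other kinases. ERK substrates had 9 of 14 called, and ERK output genes 12 of 13, with 12 lower and 0 higher. With no low-count filter 10.9% of all tested genes were called. List calls were 3 of 10 for GTPase-activating proteins, 8 of 20 for scaffolds and 1 of 11 for other RAS GTPases. Other RAS GTPases also had 1 by DESeq2, which called 15.4% of all genes. Library totals gave 1 for adaptors and 1 for other kinases, against 14.8% of all genes. The replicate block gave 1 for adaptors, against 13.5% of all genes. Leaving out a library gave 0 to 6 for adaptors, 0 to 2 for GTPase-activating proteins, 0 to 5 for lipid processing and 2 to 11 for scaffolds. It gave 0 to 3 for other RAS GTPases, 1 to 6 for other kinases, 2 to 7 for substrates and 3 to 12 for output genes. Over the whole table these fits called 457 to 4543 genes. Every list reached its highest count without control siRNA replicate 1, where 15.5% of all genes were lower and 13.5% higher. The list counts thus moved with the number of genes called, and the cause of these shifts was not tested.

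Whether libraries are paired is not known, since the count tables number them otherwise than the titles do. Deviations from the group means of libraries with the same number in the titles correlated at 0.0942, 0.0014 and -0.0159 over genes. Those of libraries with different numbers correlated at -0.0846 to 0.102. The replicate block called 2052 genes, HRAS among them (-0.47, edgeR adjusted p = 0.015). With 3 libraries a group, intervals of the members are wide beside their fold changes: that of NRAS spans -0.15 to 0.55. A member that was not called is not shown to be unaffected.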
